A study of Mus musculus with 8 samples.

Results

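The 40 genes described here are germ cell genes chosen by name for their roles in germ cell fate, meiosis, and the piRNA pathway, with a few other testis genes. Genes of this kind are known as targets of promoter methylation. They were looked up by Ensembl identifier in the count tables of E14 mouse ESCs, a feeder-independent line of strain 129/Ola, and 39 of the 40 were found among 37263 genes. Rhox5 was not analysed here. Of the 39, 37 reached 1 CPM (counts relative to the library's total, scaled with edgeR's TMM factors) in at least 2 libraries and entered the tests with 14894 other genes. The cells were cultured in serum with LIF and then switched to 2i, a serum-free medium with LIF, CHIR99021 against GSK3, and PD0325901 against MEK. They were collected at 4, 16, 24, and 32 hr, without vitC (the 2i libraries) or with 17 µM vitC added to 2i (the vitC libraries). All cells carry an unmodified genome as far as the labels say, and no serum library was analysed here. There was 1 library of ribosomal RNA-depleted total RNA for each of the 8 combinations.

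In mammals, many promoters of germ cell genes are rich in CpG and become methylated when the embryo implants, and this methylation keeps the genes off in somatic cells. A noncanonical Polycomb complex with MGA, MAX, E2F6, L3MBTL2, and PCGF6 represses an overlapping group of these promoters in ESCs. The TET enzymes oxidize 5-methylcytosine, and vitC raises their activity. Primordial germ cells lose methylation genome-wide, and several germ cell genes switch on as they do. Methylation itself was not among the values analysed here.

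The library totals ranged from 12940716 to 18434932 counts in 2i and from 4753528 to 13157570 with vitC. A count of 3, taken as the floor, was 0.163 to 0.631 CPM of the raw totals, before TMM scaling. Lane 8 held the libraries of 4 and 24 hr and lane 7 those of 16 and 32 hr. The comparisons 24 hr against 4 hr and 32 hr against 16 hr therefore lie within a lane, and for 32 hr against 4 hr the lane cannot be told apart from time. All 8 markers of mouse ESCs reached 1 CPM, and their summed level was 1610 to 1814 CPM in every library. The single markers were less steady and moved both ways. In 2i from 4 to 32 hr Utf1 went from 19.0 to 2.08 CPM and Pou5f1 from 505 to 338 CPM. Sox2 went from 145 to 325 CPM and Esrrb from 149 to 266 CPM. Of 7 fibroblast or feeder markers 6 reached 1 CPM, with Lum at no more than 0.429 CPM, and the sum, mostly Col1a1 and Col1a2, was 116 to 369 CPM in 2i and 96.4 to 676 CPM with vitC, lowest at 4 hr in both. Lars2 together with features that follow it made up 0.0277% to 5.92% of counts in 2i and 0.0113% to 7.11% with vitC, again lowest at 4 hr. Trophoblast markers, of which 5 of 6 reached 1 CPM and Elf5 stayed at no more than 0.746 CPM, summed to 344 to 777 CPM in 2i and 290 to 565 CPM with vitC, mostly Krt8, and were highest at 4 hr in both. All 6 primitive endoderm markers reached 1 CPM. Their sum was 13.3 to 24.9 CPM in 2i and 10.4 to 33.2 CPM with vitC, lowest at 4 hr in both. The single ones again moved both ways. In 2i from 4 to 32 hr Dab2, Pdgfra, and Sox17 went up, Dab2 from 5.47 to 11.8 CPM. Gata4, Gata6, and Foxa2 went down, Gata4 from 2.50 to 2.00 CPM. For 2-cell-like cells, in which germ cell genes could also be read, 5 of 7 markers were found and their sum stayed at 3.75 to 8.31 CPM. The part of these marker lists in the results below was not tested, whereas that of the Lars2 share was, as a covariate.

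Most of these genes were transcribed at a low but measurable level. A count was present in every library for 36 of the 39, a mean of at least 2 CPM was reached by 31, and 27 had a mean of at least 1 RPKM (CPM per kilobase of merged exons). The median of the mean levels was 3.22 RPKM over the 37 tested genes, against 5.73 RPKM over 14519 tested genes with a length and 1.47 RPKM over 20194 protein-coding genes. The name of silenced genes is therefore not borne out by the RNA for the whole group, since 10 of the 37 stood above the median of all genes tested. Lower RNA per cell and fewer expressing cells cannot be told apart in these bulk libraries.

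The highest level per length belonged to Tex19.1, a mammalian-specific protein that limits transposons in germ cells and placenta, with a mean of 37.2 RPKM and a range of 20.7 to 72.2. Dppa3 (Stella), a maternal factor that guards methylation in the zygote, followed with a mean of 20.7 RPKM (10.04 to 32.3). Sycp3, a component of the axis of meiotic chromosomes, had a mean of 18.2 RPKM (13.1 to 21.2), but 52.2% of its exon bases lie opposite exons of Chpt1, and without a stated strand setting the reads of the pair cannot be separated. Next came Dmrt1, Prdm14, Syce1, and Dazl at means of 13.8, 11.6, 10.7, and 9.29 RPKM. At the other end, 8 members stayed under a mean of 0.6 RPKM, among them Spo11, which makes the breaks that start meiotic recombination, at 0.250 RPKM and Sycp2, a partner of Sycp3, at 0.162 RPKM.

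**Figure D1:**
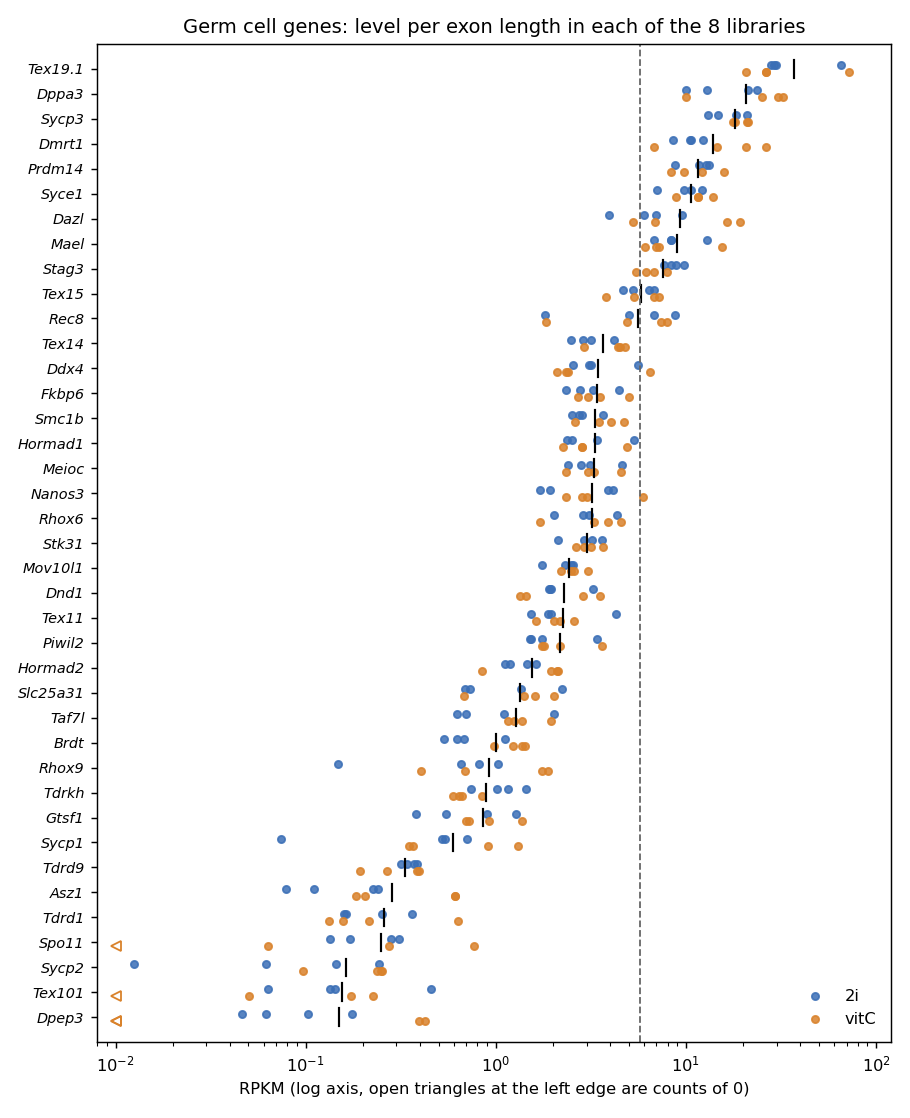
Level of each of the 39 members in RPKM on a log axis, with 1 point for each library (blue for 2i, orange for vitC), a black bar at the mean of 8 libraries, and a dashed line at the median of all tested genes with a length (5.73 RPKM). Open triangles mark counts of 0, which occurred in Spo11, Tex101, and Dpep3.

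Promoter windows of 300 bases, from 250 before to 50 after the transcription start (RefSeq, GRCm38.p6), were found for 30 of the 40 genes. They held a median of 20 CpG (3 to 38), against a median of 7 over 32851 windows of all genes. The letters CACGTG, an E-box that reads the same on both strands, were present in 14 of the 30 (46.7%), against 7.15% of all windows. The letters TCCCGC, which E2F factors can bind, were present on either strand in 12 of the 30 (40%), against 20% of all windows. Each of these motifs contains a CpG itself, and matches of the pair can share at most 1 base. The windows shown are those of Dazl, Rec8, and Brdt, on which the rises and the vitC results below turn, and of Tex19.1, Ddx4, and Mael, which fell with time. They are printed in the direction of transcription with each CpG in capitals.

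Dazl, chr17:50293571-50293870, minus strand, 28 CpG, neither motif: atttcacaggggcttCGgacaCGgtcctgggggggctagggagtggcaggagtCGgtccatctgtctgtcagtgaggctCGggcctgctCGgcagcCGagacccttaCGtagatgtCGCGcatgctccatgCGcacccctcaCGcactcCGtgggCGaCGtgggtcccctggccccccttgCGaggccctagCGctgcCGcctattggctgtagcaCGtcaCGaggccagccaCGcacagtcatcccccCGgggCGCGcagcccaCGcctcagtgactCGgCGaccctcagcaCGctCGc
Rec8, chr14:55617916-55618215, plus strand, 18 CpG, with TCCCGC: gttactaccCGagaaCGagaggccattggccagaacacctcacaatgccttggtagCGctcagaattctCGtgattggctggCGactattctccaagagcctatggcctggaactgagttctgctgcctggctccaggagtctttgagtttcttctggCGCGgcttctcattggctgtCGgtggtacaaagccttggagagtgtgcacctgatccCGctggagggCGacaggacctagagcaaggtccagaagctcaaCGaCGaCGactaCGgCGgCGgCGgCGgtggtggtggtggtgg
Brdt, chr5:107330944-107331243, plus strand, 23 CpG, with CACGTG: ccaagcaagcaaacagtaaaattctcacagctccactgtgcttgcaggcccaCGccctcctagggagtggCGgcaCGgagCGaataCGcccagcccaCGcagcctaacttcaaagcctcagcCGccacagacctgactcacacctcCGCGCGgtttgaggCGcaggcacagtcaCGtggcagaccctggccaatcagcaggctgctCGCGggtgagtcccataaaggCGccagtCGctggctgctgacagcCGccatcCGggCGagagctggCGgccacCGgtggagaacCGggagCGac
Tex19.1, chr11:121145893-121146192, plus strand, 16 CpG, with TCCCGC: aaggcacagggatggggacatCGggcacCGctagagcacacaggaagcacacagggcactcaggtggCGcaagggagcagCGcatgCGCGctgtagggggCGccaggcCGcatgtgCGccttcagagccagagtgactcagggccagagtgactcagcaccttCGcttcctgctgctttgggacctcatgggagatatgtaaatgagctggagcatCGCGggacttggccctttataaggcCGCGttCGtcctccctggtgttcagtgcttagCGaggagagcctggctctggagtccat
Ddx4, chr13:112652261-112652560, minus strand, 38 CpG, with both motifs: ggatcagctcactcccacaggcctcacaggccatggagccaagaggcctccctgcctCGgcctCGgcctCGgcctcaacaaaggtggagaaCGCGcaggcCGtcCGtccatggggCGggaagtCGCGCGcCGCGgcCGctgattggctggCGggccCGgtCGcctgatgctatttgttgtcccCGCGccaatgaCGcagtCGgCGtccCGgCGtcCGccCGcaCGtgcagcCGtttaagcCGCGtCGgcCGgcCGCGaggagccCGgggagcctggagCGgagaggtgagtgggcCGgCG
Mael, chr1:166238695-166238994, minus strand, 24 CpG, with both motifs: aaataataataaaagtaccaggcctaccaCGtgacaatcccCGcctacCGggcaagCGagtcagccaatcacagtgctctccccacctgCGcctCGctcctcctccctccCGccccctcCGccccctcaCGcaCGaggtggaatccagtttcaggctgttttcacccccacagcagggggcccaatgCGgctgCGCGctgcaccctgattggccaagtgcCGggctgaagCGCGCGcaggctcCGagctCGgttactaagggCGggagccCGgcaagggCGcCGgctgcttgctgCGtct

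Of the members that fell from 4 to 32 hr, 4 had a window, and 3 of these held CACGTG and 4 held TCCCGC. Of those that rose, 2 had a window, Dazl and Rec8, with CACGTG in 0 and TCCCGC in 1. In the 21 tested members with a window and no call the numbers were 11 and 7. With so few windows no difference between these groups can be drawn.

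To ask how the switch to 2i changed these genes, the time points were compared over all 8 libraries with edgeR's quasi-likelihood test, with time and treatment as additive terms. Its 3 residual degrees of freedom come from the departure of the vitC course from the 2i course, not from replicate cultures. Between 4 and 24 hr, 8 of the 37 tested members changed at an adjusted p under 0.05, which is 21.6% and near the 20.5% of all genes that did so. Rec8, Dppa3, Dmrt1, and Tex14 rose, and Tex19.1, Ddx4, Mael, and Piwil2 fell. Between 4 and 32 hr 11 changed, 5 upward (13.5%, against 13.5% of all genes) and 6 downward (16.2%, against 11.8%). Dazl and Prdm14 joined the rises and Hormad1 and Tex15 the falls, whereas Tex14 no longer passed. The median log2 fold change of the 37 was -0.10 from 4 to 24 hr and -0.26 from 4 to 32 hr, against 0.01 and 0.00 over all genes. Without the 2i library at 4 hr the latter median was 0.046. At an unadjusted p under 0.05, 5 rose (13.5%, against 18.2% of all genes) and 11 fell (29.7%, against 16.3%) from 4 to 24 hr. Between the 4 and 32 hr libraries of 2i, 15 of 37 were at least 1.5-fold lower (40.5%, against 16.4% of all genes). At least 1.5-fold higher were 3 (8.11%, against 20.1%). With vitC 8 of 36 were lower (22.2%, against 17.4%) and 10 higher (27.8%, against 22.5%). The members therefore did not move as a block, and rises and falls stood side by side, with falls more frequent in 2i.

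Rec8, the kleisin subunit of meiotic cohesin, had the largest rise of all members. It was at 5.35, 14.7, 19.97, and 25.7 CPM at 4, 16, 24, and 32 hr in 2i and 5.37, 14.4, 23.4, and 21.8 CPM with vitC. The courses of the treatments ran together, and each later library was above both libraries at 4 hr. Here and below, the standard error after ± was derived from the log2 fold change and the statistic of its edgeR test. The log2 fold change was 2.00 ± 0.23 (edgeR adjusted p = 1.8e-04) from 4 to 24 hr and 2.15 ± 0.22 (edgeR adjusted p = 6.8e-05) from 4 to 32 hr.

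Dppa3 was at 8.96, 11.5, 21.1, and 18.9 CPM at 4, 16, 24, and 32 hr in 2i and 8.95, 22.3, 27.2, and 28.8 CPM with vitC. It was equal in the treatments at 4 hr, and all later libraries were higher, those with vitC more so. Its log2 fold change was 1.41 ± 0.25 (edgeR adjusted p = 0.0024) by 24 hr and 1.36 ± 0.24 (edgeR adjusted p = 0.0019) by 32 hr.

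Dmrt1, a transcription factor of testis and germ cell development, was at 22.1, 27.6, 31.9, and 27.3 CPM at 4, 16, 24, and 32 hr in 2i and 17.7, 37.9, 53.8, and 68.1 CPM with vitC. The 2i values stayed between 22.1 and 31.9 CPM, while with vitC each time was above the one before. Its fold change over 24 hr was 1.00 ± 0.29 (edgeR adjusted p = 0.028) and over 32 hr 1.12 ± 0.29 (edgeR adjusted p = 0.015), on the log2 scale. Taken by treatment, the 32 hr library stood over the 4 hr library by a log2 ratio of 0.30 (0.09 to 0.52) in 2i and 1.95 (1.74 to 2.16) with vitC, with 95% intervals that cover counting error only.

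Dazl, an RNA-binding protein needed for germ cell entry into meiosis, was at 26.7, 15.1, 22.9, and 36.4 CPM at 4, 16, 24, and 32 hr in 2i and 20.1, 26.4, 62.6, and 73.6 CPM with vitC. In 2i the 16 hr library was the lowest of the 4, and with vitC the 24 and 32 hr libraries stood above all others. The rise passed from 4 to 32 hr (1.07 ± 0.32, edgeR adjusted p = 0.027) but not from 4 to 24 hr (0.64 ± 0.32, edgeR adjusted p = 0.18). The ratio of 32 to 4 hr was 0.45 (0.26 to 0.64) in 2i and 1.87 (1.68 to 2.08) with vitC on the log2 scale.

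Prdm14, which guards naive pluripotency and specifies primordial germ cells, was at 22.4, 33.8, 32.6, and 30.2 CPM at 4, 16, 24, and 32 hr in 2i and 21.3, 24.9, 31.3, and 40.9 CPM with vitC. Both 4 hr libraries were the lowest, and the highest was vitC at 32 hr. The rise from 4 to 32 hr was 0.70 ± 0.21 (edgeR adjusted p = 0.028) on the log2 scale, and from 4 to 24 hr the change did not pass (0.55 ± 0.21, edgeR adjusted p = 0.087). The former call was lost without either library at 4 hr and without vitC at 32 hr, where the value was 0.38 (edgeR adjusted p = 0.33).

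Tex14, a protein of the bridges between germ cells, was at 12.5, 14.3, 21.1, and 15.9 CPM at 4, 16, 24, and 32 hr in 2i and 14.5, 22.5, 24.02, and 22.1 CPM with vitC. It was highest at 24 hr in both treatments. The change was 0.75 ± 0.21 (edgeR adjusted p = 0.026) by 24 hr and 0.47 ± 0.21 (edgeR adjusted p = 0.11) by 32 hr, so only the former passed.

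Among the falls, Tex19.1 was the largest in CPM and on the log2 scale, and it was present by 16 hr. It was at 123, 55.8, 52.2, and 54.2 CPM at 4, 16, 24, and 32 hr in 2i and 135, 38.8, 49.1, and 49.2 CPM with vitC. No later library overlapped with the libraries at 4 hr. On the log2 scale it fell by 1.35 from 4 to 24 hr and by 1.32 from 4 to 32 hr, or -1.35 ± 0.17 (edgeR adjusted p = 3.3e-04) and -1.32 ± 0.16 (edgeR adjusted p = 2.0e-04). The summed trophoblast markers were also highest at 4 hr, at 777 CPM in 2i and 565 CPM with vitC against 344 and 290 CPM at 32 hr. Most of each sum was Krt8, at 741 CPM in 2i and 537 CPM with vitC at 4 hr. The single markers moved both ways from 4 to 32 hr. Krt8, Cdx2, and Eomes fell in both treatments. Krt7 fell in 2i but went from 10.2 to 24.7 CPM with vitC, and Tfap2a, at a low level, was higher at 32 hr in both. The part of these markers in the fall of Tex19.1 was not tested.

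Ddx4 (Vasa), an RNA helicase that marks the germ lineage, was at 16.8, 7.67, 9.55, and 9.35 CPM at 4, 16, 24, and 32 hr in 2i and 19.4, 7.21, 7.08, and 6.33 CPM with vitC. Its fall was -1.12 ± 0.27 (edgeR adjusted p = 0.012) and -1.22 ± 0.26 (edgeR adjusted p = 0.0048) over 24 and 32 hr on the log2 scale. The 4 hr libraries held the highest values, and the lowest was vitC at 32 hr.

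The piRNA factors Mael and Piwil2 both fell. Mael, a protein of the nuage that takes part in transposon silencing, was at 22.3, 14.4, 14.4, and 11.7 CPM at 4, 16, 24, and 32 hr in 2i and 26.7, 12.5, 10.5, and 12.00 CPM with vitC, with -1.05 ± 0.23 (edgeR adjusted p = 0.0055) from 4 to 32 hr. Piwil2 (MILI), a PIWI protein that binds piRNAs, was at 17.9, 9.303, 8.14, and 8.02 CPM at 4, 16, 24, and 32 hr in 2i and 19.02, 9.22, 9.44, and 11.5 CPM with vitC, with -0.94 ± 0.23 (edgeR adjusted p = 0.012). For both, the 6 libraries from 16 hr on lay below the 2 libraries at 4 hr. From 4 to 24 hr the changes were -0.96 ± 0.23 (edgeR adjusted p = 0.013) for Mael and -1.08 ± 0.24 (edgeR adjusted p = 0.0091) for Piwil2.

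Hormad1, a protein of unsynapsed meiotic chromosome axes, was at 9.25, 4.36, 5.87, and 4.08 CPM at 4, 16, 24, and 32 hr in 2i and 8.51, 3.89, 4.93, and 4.92 CPM with vitC. Its change passed from 4 to 32 hr (-0.98 ± 0.30, edgeR adjusted p = 0.03) and not from 4 to 24 hr (-0.70 ± 0.30, edgeR adjusted p = 0.12). Tex15, which is required for meiotic repair and transposon silencing in the testis, was at 65.4, 61.8, 50.6, and 45.1 CPM at 4, 16, 24, and 32 hr in 2i and 69.4, 65.7, 51.04, and 36.4 CPM with vitC. The fall of Tex15 was -0.73 ± 0.16 (edgeR adjusted p = 0.0053) from 4 to 32 hr, and its lowest library in each treatment was that at 32 hr.

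**Figure D2:**
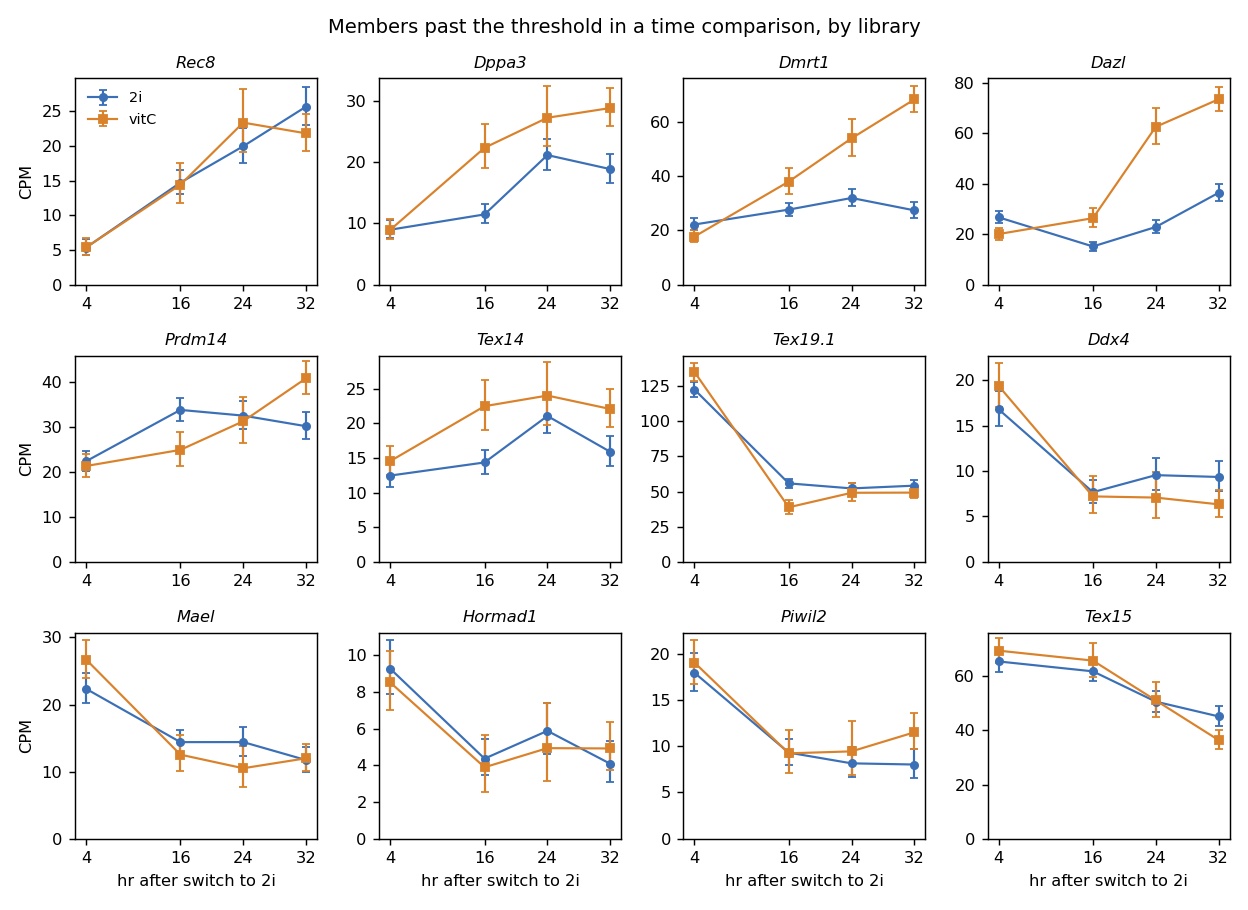
CPM of the 12 members that passed the threshold in a time comparison, by hr after the switch to 2i, with 1 point per library (blue circles 2i, orange squares vitC) and 95% binomial intervals for counting error. Rec8 and Dppa3 started near 5.4 and 9.0 CPM in both treatments and rose, Tex19.1 fell from over 120 CPM, and the vitC courses of Dazl and Dmrt1 left those of 2i from 16 hr on.

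These calls differ in how far they rest on particular libraries. Rec8, Dppa3, and Tex19.1 passed in both comparisons whichever of the 8 libraries was left out. From 4 to 24 hr, 4 of the 8 calls were kept without the 2i library at 24 hr (when 1486 of all genes passed in place of 3061), 4 without vitC at 4 hr (933), and 3 without vitC at 24 hr (752). From 4 to 32 hr, 7 of the 11 were kept without 2i at 32 hr (1401 of all genes in place of 3784), 3 without vitC at 4 hr (1694), and 4 without vitC at 32 hr (1498). Without vitC at 4 hr Tex11, which did not pass with all libraries, fell in both comparisons. Tex14 from 4 to 24 hr and Hormad1 from 4 to 32 hr passed in no omission of a library from the times compared. They passed only where the omitted library was of another time. Dazl and Hormad1 from 4 to 32 hr did not pass in DESeq2. With the Lars2 share as a covariate, which was lowest at 4 hr and so overlaps with time, 0 members passed from 4 to 24 hr in edgeR (13 of all genes) and 1, Rec8, from 4 to 32 hr (306 of all genes). At an unadjusted p under 0.05 1 member passed from 4 to 24 hr with it, and the share of all genes there is not given. The fitted changes did not all shrink alike. From 4 to 24 hr Rec8 was at 2.16 with the covariate, Piwil2 at -0.91, and Ddx4 at -0.90, whereas Dppa3 went from 1.41 to 0.26 and Tex19.1 from -1.35 to -0.52. From 4 to 32 hr Tex15 was at -0.75, Dppa3 at 0.49, and Tex19.1 at -0.69.

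From 16 to 32 hr, within lane 7, 0 of the 37 members passed in edgeR, when 0.583% of all genes did. At an unadjusted p under 0.05 there were 11 (29.7%, against 14.3% of all genes), 8 higher at 32 hr (21.6%, against 7.33%) and 3 lower (8.11%, against 6.92%), and with DESeq2 0 passed adjustment (1.53% of all genes). Dazl was the nearest at 1.38 ± 0.32 (edgeR adjusted p = 0.076), and it was at 15.1 and 36.4 CPM in 2i and 26.4 and 73.6 CPM with vitC at 16 and 32 hr. It passed when the lane 7 libraries were fitted alone, and when either library at 4 hr was left out. The ratio of 32 to 16 hr was 1.27 (1.05 to 1.48) in 2i and 1.48 (1.25 to 1.72) with vitC. The median over the members was 0.26, against 0.00 over all genes.

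The remaining members did not pass in any of these comparisons with all libraries. Nanos3, an RNA-binding protein that keeps primordial germ cells alive, was at 1.57, 3.57, 3.84, and 1.78 CPM at 4, 16, 24, and 32 hr in 2i and 2.61, 2.16, 2.79, and 5.498 CPM with vitC. Dnd1, another RNA-binding protein of primordial germ cells, was at 7.86, 4.57, 4.699, and 4.68 CPM at 4, 16, 24, and 32 hr in 2i and 8.51, 3.46, 3.22, and 6.91 CPM with vitC, with -0.99 ± 0.35 (edgeR adjusted p = 0.062) from 4 to 24 hr. The germ cell fate group of 7 genes thus had 4 rises (Dazl, Dmrt1, Dppa3, and Prdm14) and 1 fall (Ddx4) from 4 to 32 hr, when 13.5% of all genes rose and 11.8% fell, with a median of 0.76.

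The meiotic chromosome group held 13 genes, of which 1 rose and 2 fell from 4 to 32 hr (13.5% and 11.8% of all genes), with a median of -0.26. Stag3, a meiotic cohesin subunit, was at 47.6, 44.1, 50.6, and 55.8 CPM at 4, 16, 24, and 32 hr in 2i and 38.7, 31.3, 35.2, and 45.6 CPM with vitC. Smc1b, the meiotic SMC subunit of cohesin, was at 14.8, 10.1, 11.4, and 11.1 CPM at 4, 16, 24, and 32 hr in 2i and 10.6, 16.3, 19.09, and 14.1 CPM with vitC. Unlike Rec8, with which they form a complex, neither passed in time, at log2 fold changes of 0.23 and -0.06 from 4 to 32 hr. Sycp3 was at 23.04, 16.6, 26.6, and 18.6 CPM at 4, 16, 24, and 32 hr in 2i and 26.6, 22.5, 26.8, and 22.99 CPM with vitC, and Syce1, a central element protein of the synaptonemal complex, at 17.6, 10.3, 14.3, and 15.5 CPM at 4, 16, 24, and 32 hr in 2i and 20.3, 12.97, 16.9, and 16.9 CPM with vitC. Sycp1, its transverse filament, was low at 1.92, 0.263, 2.51, and 1.86 CPM at 4, 16, 24, and 32 hr in 2i and 4.63, 1.297, 3.22, and 1.25 CPM with vitC, from 5 to 62 counts. Across these 3 the log2 fold changes from 4 to 32 hr were -0.26, -0.22, and -0.90, and none passed.

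Tex11, which promotes crossovers, was at 15.6, 5.52, 7.05, and 6.83 CPM at 4, 16, 24, and 32 hr in 2i and 9.33, 5.91, 7.29, and 7.91 CPM with vitC. The 2i library at 4 hr stood above the other 7, and, as given above, its fall passed without the vitC library at 4 hr. Meioc, which sustains meiotic prophase, was at 21.3, 11.1, 12.9, and 14.5 CPM at 4, 16, 24, and 32 hr in 2i and 14.03, 10.8, 21.02, and 15.2 CPM with vitC, and Hormad2, the paralogue of Hormad1, at 3.26, 3.05, 4.46, and 4.01 CPM at 4, 16, 24, and 32 hr in 2i and 2.31, 5.76, 5.79, and 5.33 CPM with vitC. Their changes from 4 to 32 hr were -0.75, -0.26, and 0.69 with adjusted p-values of 0.077, 0.51, and 0.22. Sycp2 had 1 to 25 counts in a library and Spo11 0 to 23, with 0 counts for Spo11 in the vitC library at 4 hr, which allows up to 0.228 CPM.

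In the piRNA group of 11 genes 3 fell and none rose from 4 to 32 hr (11.8% and 13.5% of all genes), with a median of -0.39. The median over all genes was 0.00. Mov10l1, the helicase that loads piRNA precursors, was at 10.4, 7.31, 10.7, and 9.72 CPM at 4, 16, 24, and 32 hr in 2i and 12.8, 9.22, 10.7, and 10.4 CPM with vitC. Fkbp6, a cochaperone in piRNA biogenesis, was at 5.702, 4.100, 4.86, and 7.79 CPM at 4, 16, 24, and 32 hr in 2i and 6.19, 4.76, 5.36, and 8.75 CPM with vitC, and Stk31, a Tudor domain protein, at 10.4, 6.89, 9.397, and 11.7 CPM at 4, 16, 24, and 32 hr in 2i and 10.2, 11.8, 9.44, and 8.58 CPM with vitC. None of the 3 passed, with log2 fold changes of -0.20, 0.47, and -0.02 from 4 to 32 hr. Tdrkh, a mitochondrial Tudor protein of piRNA trimming, was at 7.099, 8.83, 6.26, and 4.53 CPM at 4, 16, 24, and 32 hr in 2i and 3.95, 5.19, 4.07, and 3.67 CPM with vitC, and 36.7% of its exon bases lie opposite exons of Oaz3. Tdrd1, Tdrd9, Asz1, and Gtsf1, all of the piRNA machinery, had means of 0.801 to 1.80 CPM and 3 to 46 counts in a library, too few for a small change to be seen.

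In the transcription group, Taf7l, a germ cell paralogue of a TFIID subunit, was at 4.54, 2.47, 1.57, and 1.41 CPM at 4, 16, 24, and 32 hr in 2i and 4.402, 2.59, 2.79, and 3.08 CPM with vitC. Brdt, a testis bromodomain protein, was at 5.702, 3.47, 3.21, and 2.75 CPM at 4, 16, 24, and 32 hr in 2i and 4.999, 7.06, 7.29, and 6.33 CPM with vitC. Taf7l had -1.07 ± 0.44 (edgeR adjusted p = 0.095) from 4 to 32 hr and Brdt -0.39 ± 0.39 (edgeR adjusted p = 0.49), neither past the threshold. The X-linked homeobox genes Rhox6 and Rhox9 are near copies of each other, so their split of reads is uncertain. Rhox6 was at 4.36, 2.05, 2.897, and 3.12 CPM at 4, 16, 24, and 32 hr in 2i and 3.95, 3.31, 1.72, and 4.58 CPM with vitC and Rhox9 at 2.56, 0.368, 2.04, and 1.63 CPM at 4, 16, 24, and 32 hr in 2i and 4.700, 1.01, 1.72, and 4.33 CPM with vitC. Slc25a31, a testis ADP/ATP carrier, was at 4.77, 1.47, 1.57, and 2.89 CPM at 4, 16, 24, and 32 hr in 2i and 4.33, 1.44, 3.003, and 3.42 CPM with vitC, also with no call. Tex101 and Dpep3, sperm surface proteins, had 0 to 13 and 0 to 8 counts in a library and were not tested.

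**Figure D3:**
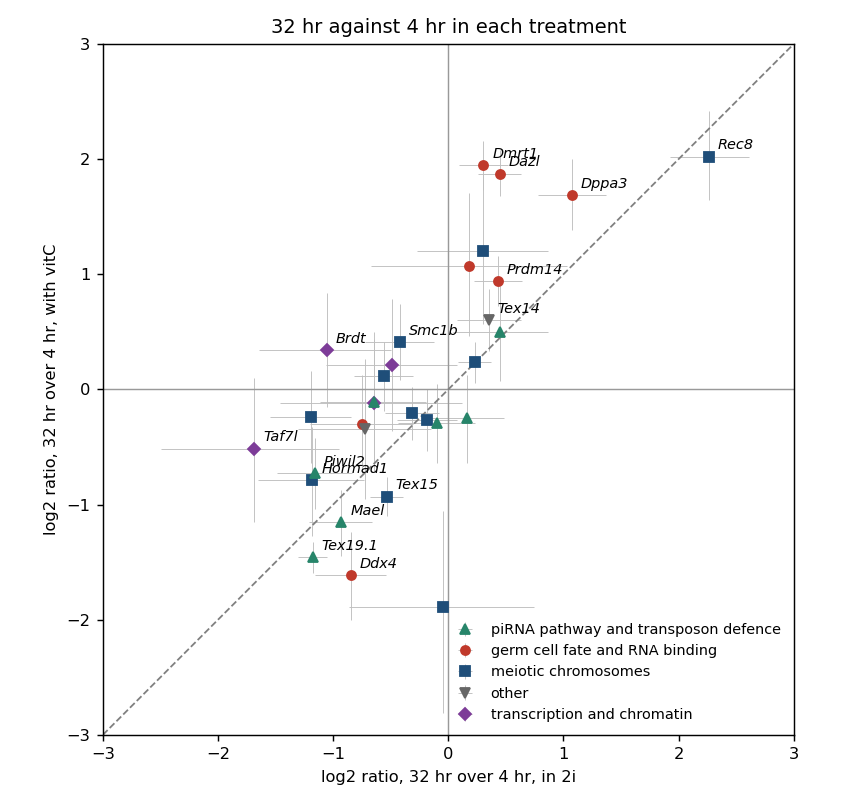
Log2 ratio of CPM at 32 hr over 4 hr in 2i (horizontal) and with vitC (vertical) for the 31 members with a mean of at least 2 CPM, with 95% intervals for counting error, colored by role, and a dashed line of equality. Rec8 lies near the line at 2.26 and 2.02, whereas Dmrt1 and Dazl lie above it, at 0.30 and 0.45 in 2i and 1.95 and 1.87 with vitC.

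To ask what vitC changed, each vitC library was set against the 2i library of the same time and lane, and the 4 pairs were tested together with time as a block. In edgeR 0 of the 37 members passed, when 25 of 14931 genes (0.167%) did, 0.107% higher and 0.0603% lower. With DESeq2 0 members passed as well, when 1.48% of all genes were higher and 0.429% lower. At an unadjusted p under 0.05, 6 members were higher with vitC (16.2%, against 8.08% of all genes) and 2 lower (5.41%, against 5.73%). The higher ones were Dazl, Dmrt1, Brdt, Dppa3, Tex14, and Rhox9, and the lower ones Stag3 and Tdrkh. The median log2 fold change was 0.19 over the members and -0.02 over all genes.

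Dazl, Dmrt1, and Brdt had a shared pattern over the pairs. The log2 ratio of vitC to 2i for Dazl at 4, 16, 24, and 32 hr was -0.41 (-0.63 to -0.19), 0.80 (0.53 to 1.07), 1.45 (1.21 to 1.69), and 1.01 (0.85 to 1.18). For Dmrt1 these ratios were -0.32 (-0.56 to -0.08), 0.46 (0.24 to 0.67), 0.76 (0.52 to 0.99), and 1.32 (1.14 to 1.5003). For Brdt they were -0.19 (-0.66 to 0.27), 1.03 (0.46 to 1.58), 1.18 (0.48 to 1.88), and 1.205 (0.62 to 1.81). At 4 hr Dazl and Dmrt1 were below 2i and Brdt did not differ beyond counting error, and all 3 were above 2i beyond counting error in each later pair.

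Over the 4 pairs the additive fold change of Dazl was 0.72 ± 0.23 (edgeR adjusted p = 0.18), that of Dmrt1 0.57 ± 0.20 (edgeR adjusted p = 0.23), and that of Brdt 0.77 ± 0.28 (edgeR adjusted p = 0.24). Without the 4 hr pair, an alternative chosen after seeing the data, these 3 members passed in edgeR (8.11%, against 2.08% of all genes higher). Leaving out either library of that pair is nearly the same test, because the other then adds nothing to the vitC term. The same 3 passed there, which is no further support. Without the 16 hr pair 0 passed (0.0476% of all genes were higher and 0.0408% lower), nor without that at 24 hr (0.034% and 0.0408%) or at 32 hr (0% and 0%). At an unadjusted p under 0.05 there were 3, 5, and 3 members. The share of all genes at that threshold is not given for these fits, so no excess can be read from them. Within lane 7 (16 and 32 hr) Dazl and Dmrt1 passed (5.71% of 35 members, against 0.965% of all genes). Its libraries are all part of the fit without the 4 hr pair, so this is no separate support. With fewer libraries it also leaves fewer residual degrees of freedom. Within lane 8 (4 and 24 hr) 0 passed, when 0 of all genes did. There 1 member had an unadjusted p under 0.05, again without a share of all genes. Whether the difference grew with time was tested directly with a linear term in hours. In edgeR 0 members and 0 of all genes passed, with 3 members at an unadjusted p under 0.05 (8.11%, against 2.89% of all genes, of which 1.85% had a growing and 1.04% a shrinking ratio). These were Dazl, Dmrt1, and Brdt, all growing, and DESeq2 called 1 gene in all (0.0067%), no member. The fitted slopes were 0.056, 0.057, and 0.051 log2 units per hr, each with an edgeR adjusted p of 0.9997.

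**Figure D4:**
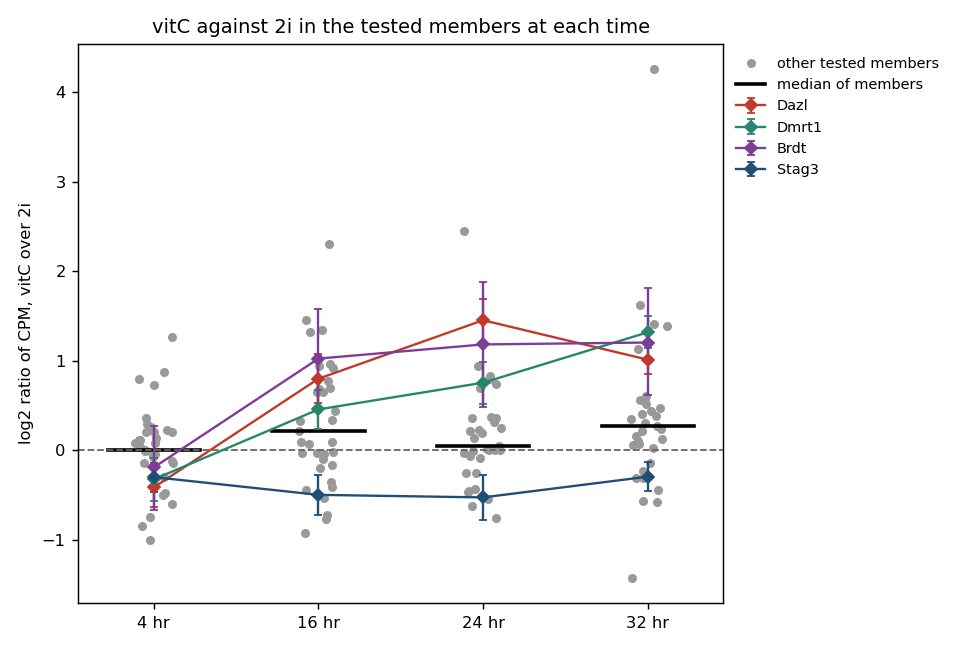
Log2 ratio of CPM, vitC over 2i, in the pair of libraries at each time, with a gray point for each tested member, a black bar at their median, and lines with 95% counting intervals for Dazl, Dmrt1, Brdt, and Stag3. The members' median was 0.00, 0.21, 0.05, and 0.27 at 4, 16, 24, and 32 hr, and a Sycp2 point at 4.25 rests on 1 count in 2i.

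Dppa3 was level at 4 hr and higher with vitC later, at log2 ratios of 0.00 (-0.36 to 0.35), 0.96 (0.66 to 1.27), 0.37 (0.05 to 0.67), and 0.61 (0.37 to 0.85). Tex14 was higher in all 4 pairs, by 0.19 to 0.65, with an additive value of 0.39 ± 0.15 (edgeR adjusted p = 0.27). Its intervals at 4 hr (-0.06 to 0.51) and 24 hr (-0.14 to 0.51) cover both signs. Rhox9, at 7 to 63 counts, had 0.87 ± 0.38 (edgeR adjusted p = 0.33). Rec8 had smaller ratios of 0.00 (-0.46 to 0.47), -0.03 (-0.37 to 0.30), 0.23 (-0.11 to 0.56), and -0.23 (-0.47 to 0.00).

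Stag3 was lower with vitC in each of the 4 pairs. Its log2 ratios were -0.30 (-0.46 to -0.14), -0.50 (-0.72 to -0.28), -0.52 (-0.78 to -0.27), and -0.29 (-0.45 to -0.13), and the additive value was -0.40 ± 0.11 (edgeR adjusted p = 0.13). Tdrkh was lower in 4 of 4 pairs, from -0.84 at 4 hr to -0.30 at 32 hr, with -0.64 ± 0.22 (edgeR adjusted p = 0.22). Unlike those of Stag3, its intervals at 24 hr (-1.43 to 0.11) and 32 hr (-0.90 to 0.28) cover both signs. Neither passed adjustment over all genes. The additive values of Tex19.1 and Ddx4 were -0.15 and -0.19, and their pairs went both ways. Tex19.1 had 0.14 (0.05 to 0.23) in the 4 hr pair and -0.53 (-0.72 to -0.33) in the 16 hr pair, and Ddx4 0.21 (-0.04 to 0.45) in the 4 hr pair and -0.56 (-0.99 to -0.14) in the 32 hr pair.

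Counted by size, the members at least 1.5-fold higher with vitC numbered 4 of 36 with a ratio in the 4 hr pair (7.53% of all genes were), 14 of 37 in the 16 hr pair (13.1%), and 9 in each of the 24 hr (12.6%) and 32 hr (10.6%) pairs. Those at least 1.5-fold lower numbered 4, 3, 2, and 1 in the same order (8.83%, 11.8%, 12.4%, and 8.62% of all genes). Dazl and Brdt were among the higher ones at 16, 24, and 32 hr. At 16 hr the list included Dppa3, Tex14, Smc1b, Stk31, and Hormad2, and also Sycp1, Sycp2, Asz1, Spo11, and Gtsf1 at 4 to 23 counts, where a 1.5-fold ratio is easily reached. At 32 hr it included Nanos3, at 1.78 CPM in 2i and 5.498 CPM with vitC, a log2 ratio of 1.63 (0.93 to 2.36). The medians of the members at the 4 times were 0.00, 0.21, 0.05, and 0.27, against 0.01, -0.02, -0.01, and 0.00 over all genes. The vitC libraries at 16 and 24 hr were the smallest, at 6969300 and 4753528 counts, and have the widest intervals.

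For comparison, 44 other germ cell genes were followed, of which 34 were tested. From 4 to 24 hr 4 rose and 3 fell, when 11.5% and 8.98% of all genes did. The largest rise was that of Stra8, the retinoic acid-induced gatekeeper of meiosis, at 5.70, 20.6, 46.9, and 64.1 CPM in 2i and 4.18, 31.0, 65.4, and 77.1 CPM with vitC (a log2 fold change of 3.45 ± 0.24 from 4 to 24 hr, edgeR adjusted p = 9.0e-06). Kit, the receptor of stem cell factor on germ cells, rose by 1.75, and Syce2, a partner of Syce1, fell by 0.73, on the log2 scale. From 4 to 32 hr 5 rose and 2 fell, when 13.5% and 11.8% of all genes did. Among the rises was that of Rec114, a partner in break formation, by 1.61. With vitC 0 of the 34 passed in edgeR, with 4 at an unadjusted p under 0.05 (13.8% of all genes), and their median was 0.04. After adjustment 1 passed in DESeq2, when 1.48% of all genes were higher and 0.429% lower.

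The repressors of germ cell genes were counted in the same way. Of 13 tested, 1 rose and 4 fell from 4 to 24 hr (11.5% and 8.98% of all genes), and none rose and 5 fell from 4 to 32 hr (13.5% and 11.8% of all genes), with medians of -0.25 and -0.34. Mga, the DNA-binding scaffold of the noncanonical Polycomb complex, fell by 0.59 from 4 to 32 hr on the log2 scale. Trim28, a corepressor of KRAB zinc finger proteins, fell by 0.67. Its libraries at 4 hr held 1690 (2i) and 1873 CPM (vitC), and those at 32 hr 1076 and 1163 CPM. With vitC 0 of the 13 passed in edgeR, with 2 at an unadjusted p under 0.05 (13.8% of all genes). After adjustment 1 passed in DESeq2, when 1.48% of all genes were higher and 0.429% lower. Of 8 genes that write, copy, or oxidize DNA methylation, 3 rose and 2 fell from 4 to 24 hr. Of all genes 11.5% and 8.98% did so. From 4 to 32 hr 2 rose and 2 fell (13.5% and 11.8% of all genes). The largest changes were those of Dnmt3l, a cofactor of the de novo methyltransferases, and Dnmt3b, such an enzyme, which fell by 3.86 and 2.08 on the log2 scale from 4 to 24 hr and by 4.08 and 2.32 from 4 to 32 hr. Tet1, an enzyme that oxidizes 5-methylcytosine, rose by 1.201 and 0.50. With vitC 0 of the 8 passed in edgeR, with 4 at an unadjusted p under 0.05, and 2 passed after adjustment in DESeq2. The shares of all genes are those given for the repressors.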

How the data were processed

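RNA-seq of 8 libraries of mouse ESCs was analysed, 1 for each treatment and time, grouped by the labels. Per the submitters' processing notes and the labels, reads (50 bases, TruSeq libraries of total RNA depleted of ribosomal RNA) were handled with GSNAP and HTSeq, with the builds NCBIM37 and mm9 named. The authors deposited raw counts per Ensembl gene, without normalization. The strand setting and annotation release are not given in the sources used here. Symbols and merged exon lengths came from GENCODE M21 (32604 of 37263 identifiers matched), and no coordinates of the files were used. The 14931 genes that reached 1 CPM of the raw totals in 2 or more libraries were tested with edgeR 4.0.16 in R 4.3.3 (TMM, quasi-likelihood test, Benjamini-Hochberg over all genes tested, threshold 0.05). Ratios of single libraries carry exact binomial 95% intervals, and these and the floor of 3 counts cover counting error only. DESeq2 1.42.0, another scaling or filter, thinning, covariates, single lanes, and the omission of each library were tried as alternatives. The lane was read from the names of the deposited files. Nothing says that libraries came from separate cultures, so p-values measure only the spread between these libraries. The members, lists, and tests were chosen with earlier results of these data known. Every library is given for members that passed a test or had a mean of at least 2 CPM, and counts or ranges for the rest.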

Additional observations from a re-analysis of the deposited data

Results flagged for a closer look

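In 5 members the change between libraries of a lane or course had opposite directions in the treatments, each beyond counting error. With 1 library per point this difference was not tested against replicates. The share of all genes that meet the same rule was not counted, so the 5 cannot be read as a trait of this group. From 4 to 24 hr the log2 ratio of Dazl was -0.22 in 2i and 1.64 with vitC. That of Smc1b was -0.37 in 2i and 0.85 with vitC, and from 4 to 32 hr -0.42 and 0.41. Meioc had -0.72 in 2i and 0.58 with vitC from 4 to 24 hr. From 16 to 32 hr Stk31 had 0.76 in 2i and -0.46 with vitC, and Nanos3, at 15 to 68 counts in these libraries, -1.004 and 1.35. For Smc1b and Meioc the vitC library at 4 hr was below that of 2i beyond counting error, at 10.6 against 14.8 CPM and 14.03 against 21.3 CPM.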

How the results depend on the processing

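The labels give no replicate numbers, so no replicate entered a fit as a block, and libraries were paired by time in the test of vitC. From 4 to 24 hr 3061 genes and 8 members passed. With the Lars2 share as a covariate these were 13 and 0, without a treatment term 1889 genes passed, and leaving out 1 library gave 752 to 3356 genes and 3 to 9 members. From 16 to 32 hr 87 genes and 0 members passed. The genes numbered 208 without the CPM filter, 229 with DESeq2, 11 without a treatment term, 238 within lane 7 alone, and 2 to 137 with 1 library left out, and the members 1 without the CPM filter, 1 within lane 7 alone, and 0 to 1 with 1 library left out, this being Dazl each time. From 4 to 32 hr 3784 genes and 11 members passed, against 306 and 1 with the Lars2 covariate and 1401 to 4090 genes and 4 to 11 members with 1 library left out. The members' median, -0.26, ranged from -0.34 to 0.046 when 1 library was left out, and was 0.046 without 2i at 4 hr. For vitC 25 genes and 0 members passed. The genes numbered 279 without the CPM filter, 285 with DESeq2, 122 after thinning to the smallest total, 13 after correction for GC content and length, 183 within lane 7, and 0 each within lane 8, without the time block, and with the Lars2 covariate. With 1 library or pair left out they numbered 0 to 415 and the members 0 to 3, and 2 members passed within lane 7. For the vitC ratio growing with hours 0 genes passed, 1 without the CPM filter, 1 with DESeq2, and 1 to 23 with 1 library left out. The cause of these shifts was not tested. With GC content and length corrected, the share of rises among genes called from 4 to 24 hr was 44.4% in place of 56.2%, from 16 to 32 hr 46.7% in place of 57.5%, and from 4 to 32 hr 44.9% in place of 53.4%. All 8 members called from 4 to 24 hr then passed, and from 4 to 32 hr Hormad1 did not (-0.64, edgeR adjusted p = 0.14). Counts under about 20 in the smaller libraries limit Sycp2, Spo11, Asz1, Tdrd1, and Tdrd9, for which small changes were not detectable at this depth.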
